A study of Mus musculus with 2 samples.

Results

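Amino acid transporters were examined in whole-kidney RNA of mice put through a model of acute kidney injury (AKI). They were taken as the genes of the deposited table whose symbols begin with *Slc1a*, *Slc3a*, *Slc6a*, *Slc7a*, *Slc36a*, *Slc38a* or *Slc43a* followed by a number alone, which gave 45 of the 19829 genes listed. The rule leaves out *Slc6a20a* and *Slc6a20b*, whose symbols end in a letter, and it takes in several carriers of taurine, creatine, serotonin and nucleobases that belong to the same families. The WT+AKI library came from a left kidney of wild-type mice and the TG+AKI library from a left kidney of *Inmt* transgenic mice, in which indolethylamine N-methyltransferase is overexpressed in proximal tubules. The promoter that drives the transgene is not given in the sources used here. According to the methods of the study, both were adult C57BL/6 mice, the transgenic line and its control littermates. They were given voclosporin, a calcineurin inhibitor, at a high dose ahead of bilateral ischemia–reperfusion (I/R) of the kidneys. Neither library is therefore a sham-operated or untreated control. The treatment field of both samples instead states that none was given, and the title of the TG+AKI sample also names a conditional knockout. The study reports marked renal dysfunction after I/R in the wild-type mice. In the transgenic mice it reports blood urea nitrogen and creatinine close to sham values, with less tubular injury. The comparison asked how kidney transcripts after I/R differ when the transgene is present.

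Proximal tubules recover nearly all filtered amino acids. Carriers in the brush border take amino acids up from the filtrate with sodium, protons or in exchange for other amino acids, and exchangers and facilitators in the basolateral membrane pass them on to the blood. Many exchangers are heteromers of a heavy chain, encoded by *Slc3a1* or *Slc3a2*, and a light chain of the SLC7 family that carries out the transport. A further set of carriers supplies cells in general with amino acids, and several of their genes are known targets of ATF4, the transcription factor of the amino acid response.

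Each group held 1 library, so no difference below has a replicate check. The table gives normalized counts, of which 1 read is worth 0.0236 for WT+AKI, with 38542764 reads, and 0.0302 for TG+AKI, with 36427421 reads. Brackets give the 95% interval of the TG+AKI to WT+AKI ratio, exact (Clopper–Pearson) from the reads of both libraries. These intervals compare 2 libraries rather than conditions and cover counting error only. Reads without molecular identifiers are not independent molecules, so the intervals may be too narrow even for that error. Values are given for WT+AKI first and TG+AKI second. *Inmt* was at 10.4 and 403, in the direction of the genotype labels. A gene was compared when it reached a value of 1 in at least 1 library, and was counted as changed at a log2 difference of at least 1 after adding 0.1 to each value. In whole kidney, fewer cells of a type and less RNA per cell cannot be told apart.

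Of the 45 transporters, 42 were compared, and in TG+AKI 8 of them exceeded WT+AKI by 2-fold or more while 6 fell below it by as much. These are 19.0% and 14.3% of the transporters compared, beside 7.02% and 10.5% of the 14997 genes compared in the whole table. Of the 42, 2 passed the filter through a single library and so had to differ, *Slc7a11* through WT+AKI and *Slc6a12* through TG+AKI. Among the 17 that reached 100 in either library, 6 were higher and 2 lower, against 12.8% and 7.94% of the 2179 genes at that level. The median log2 difference was 0.30 over the 42 transporters and -0.02 over all genes compared, and the median size of the difference, whatever its sign, was 0.69 and 0.38. Scaling to equal library totals, which shifts the median of all genes by -0.28, gave 7 higher and 9 lower. Over all genes compared, 4.57% were higher and 15.6% lower with this scaling. With the median ratio of abundant genes set to 1, a shift of -0.15, it was 7 higher and 8 lower, beside 5.60% and 12.9% of all genes compared.

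**Figure D1:**
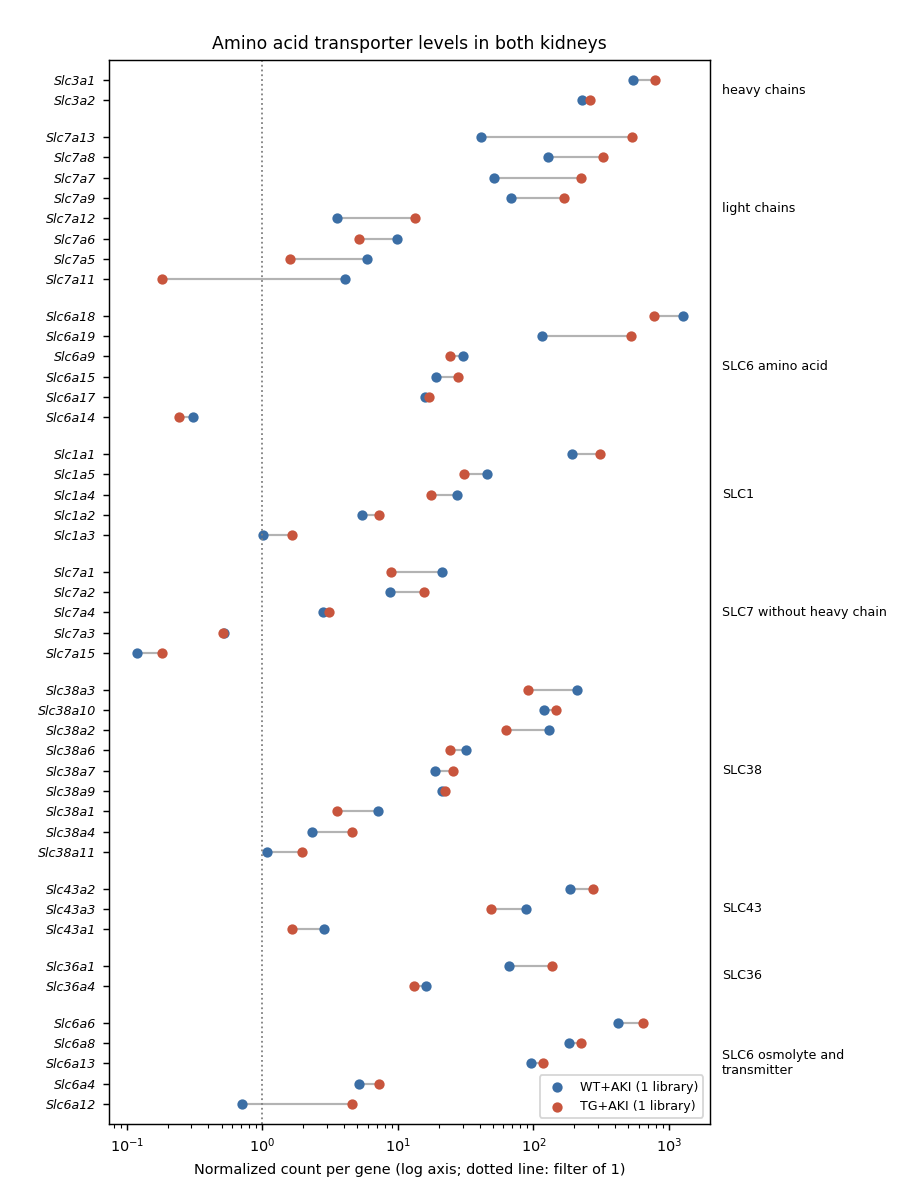
Normalized count (log axis) of each of the 45 amino acid transporters in WT+AKI (blue) and TG+AKI (red), 1 library per group, grouped by role, with the filter of 1 as a dotted line. The widest gaps are those of Slc7a13 and Slc6a12, higher in TG+AKI, and of Slc7a11, higher in WT+AKI, while 28 of the 42 transporters past the filter differed by less than 2-fold.

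Cell type markers moved between the libraries, and they are given here as values. Their counts stand beside 7.02% higher and 10.5% lower among all genes compared. The 7 proximal tubule markers summed to 2413 and 11196, a ratio of 4.64, with 6 of 7 higher and *Cyp7b1* of the late segment at 77.6 and 149. The 4 markers of injured tubules, *Havcr1*, *Lcn2*, *Krt20* and *Vcam1*, were all lower, with sums of 1873 and 17.4. Of these, *Krt20* (399 and 0.362) passed the filter through WT+AKI alone and so had to differ. The 4 macrophage markers were all lower, with sums of 86.1 and 13.3. Among distal convoluted tubule markers 2 of 3 were higher (sums 187 and 678), among thick limb markers 1 of 3 (sums 1831 and 2978) and among collecting duct markers 1 of 5 (sums 293 and 405). *Pvalb* (0.283 and 7.82), among the higher distal convoluted tubule markers, passed the filter through TG+AKI alone and so had to differ. Neither the 3 podocyte markers (sums 331 and 385) nor the 3 endothelial markers (sums 188 and 206) held a change. None of the 3 T cell markers reached the filter, and the 3 erythroid markers summed to 1.84 and 3.59, with no change among the 2 compared. The ratios of the single proximal markers ran from 1.92 for *Cyp7b1* to 7.06 for *Slc34a1*, which carries much of the sum at 764 and 5397, and their median log2 difference was 1.87. The part of cell composition in the transporter differences was not tested.

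Neither heavy chain reached 2-fold, whereas 7 of the 8 light chains counted here did, 5 higher and 2 lower. Among all genes compared, 7.02% were higher and 10.5% lower. *Slc7a11*, which is among the 7, passed the filter through WT+AKI alone and so had to differ. *Slc3a1*, which encodes the brush border heavy chain rBAT, was at 540.0 (22895 reads) and 792 (26212 reads), a ratio of 1.47 [1.44 to 1.49]. *Slc3a2*, which encodes the basolateral heavy chain 4F2hc, was at 227 (9628 reads) and 260.3 (8620 reads), a ratio of 1.15 [1.11 to 1.18], and its log2 difference of 0.20 became -0.08 with equal library totals. Part of the *Slc3a1* exon sequence (26.5%) overlaps *Prepl* on the opposite strand, and without knowledge of the strand setting of the counting, reads there cannot be assigned with certainty.

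Of the 8 light chains listed, 5 were higher and 2 lower, beside 7.02% and 10.5% of all genes compared, and 1 was below the 2-fold limit. Both light chains counted here with rBAT were higher. *Slc7a13*, which encodes the aspartate, glutamate and cystine transporter of the late proximal tubule, was at 40.7 (1725 reads) and 534 (17675 reads), a ratio of 13.1 [12.5 to 13.8]. *Slc7a9*, whose product takes up cystine and cationic amino acids in the early proximal tubule and is mutated in cystinuria, was at 68.2 (2890 reads) and 169 (5608 reads), a ratio of 2.48 [2.37 to 2.60]. *Slc7a13* differed more than *Slc7a9* did, and the ratio of their reads changed 5.28-fold between the libraries (95% interval 4.94 to 5.64, from the variance of log counts), a value that no scaling of the libraries alters.

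The basolateral light chains divided into a group that was higher and a group that was lower. *Slc7a7*, which exports cationic amino acids and is mutated in lysinuric protein intolerance, was at 50.8 (2154 reads) and 224 (7429 reads), a ratio of 4.42 [4.21 to 4.63]. *Slc7a8*, an exchanger of neutral amino acids, was at 129 (5455 reads) and 327 (10840 reads), a ratio of 2.54 [2.46 to 2.63]. These are the basolateral light chains typical of proximal tubules. *Slc7a5*, the neutral amino acid exchanger found in growing cells, was instead at 5.92 (251 reads) and 1.60 (53 reads), a level 3.70-fold lower in TG+AKI [ratio 0.270, 0.197 to 0.365]. *Slc7a11*, which imports cystine for glutathione synthesis in exchange for glutamate, was at 4.06 (172 reads) and 0.181 (6 reads), 22.4-fold lower, with a counting interval of 10.1 to 61.9. Its log2 difference was -3.89 with the pseudocount of 0.1, -2.10 with 1 and -0.47 with 10. *Slc7a6*, a relative of *Slc7a7* that is expressed outside the tubule as well, was at 9.81 (416 reads) and 5.13 (170 reads), a ratio of 0.523 [0.435 to 0.627] just short of the limit, and passed it as lower with equal library totals (log2 difference -1.19) or a median ratio of 1 (-1.06). *Slc7a12*, a light chain relative for which the heavy chain partner is not known, was at 3.54 (150 reads) and 13.4 (445 reads), a ratio of 3.80 [3.15 to 4.60]. These low light chains depended on the pseudocount, and with 10 *Slc7a5* (-0.46), *Slc7a11* and *Slc7a12* (0.79) were no longer past the limit, which left 4 of the 8 light chains past it, all higher. *Slc7a5* and *Slc7a11* did not reach a filter of 10.

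Promoters of the transporters were searched for short motifs of factors known for these programmes, in RefSeq windows of GRCm38.p6 that run from 250 bases before to 50 bases after each annotated start. Windows were found for 31 of the 45 transporters. The letters TGATGNAA of the ATF4 composite element, on either strand, were found for 3 of the 31 (9.68%), against 4.51% of all 27025 genes with a window. The letters TGACNNNGC of the NRF2 antioxidant element were found for 7 (22.6%, against 14.0% of all genes), and the HNF1 element for 0 (against 0.470%). The 31 transporters had 51 windows and the 27025 genes had 32851, so the transporters had more windows per gene in which to match. Of all windows, 3.97% held the ATF4 letters and 12.4% the NRF2 letters. With so few windows these shares are descriptions only. The windows with the ATF4 letters are shown because they belong to transporters on both sides, the strongly lower *Slc7a11*, the higher *Slc7a7* and *Slc1a4*, which did not reach 2-fold. Each line gives 30 bases of the gene strand, 5′ to 3′, with the motif in capitals. In *Slc7a11* the motif occurs in both orientations, 66 and 47 bases before the annotated start.

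*Slc7a11*, chr3:50443661-50443690, minus strand: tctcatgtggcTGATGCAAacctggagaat

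*Slc7a11*, chr3:50443642-50443671, minus strand: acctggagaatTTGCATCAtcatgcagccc

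*Slc7a7*, chr14:54418067-54418096, minus strand: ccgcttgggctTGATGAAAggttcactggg

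*Slc7a7*, chr14:54417927-54417956, minus strand: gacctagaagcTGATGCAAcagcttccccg

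*Slc1a4*, chr11:20332699-20332728, minus strand: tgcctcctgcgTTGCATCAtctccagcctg

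The pair of *Slc7a11* windows overlaps, so that the motifs face each other in 1 short stretch. The pair of *Slc7a7* windows belongs to the same annotated start, 141 bases and 1 base before it. A match in letters does not show that the factor binds there, and for *Slc7a1* and *Slc38a2* these letters are not in the windows searched.

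Levels were compared between genes only per kilobase, taking the longest annotated protein-coding transcript of each gene as its length. On this scale *Slc3a1* was at 238 in WT+AKI, and *Slc7a9* and *Slc7a13* together at 54.1, so that light chain mRNA amounted to 0.228 of heavy chain mRNA. In TG+AKI the values were 349 and 337, a share of 0.966. *Slc7a13* supplied 35.1% of this light chain mRNA in the WT+AKI library and 74.1% in the other. For *Slc3a2*, the 5 light chains *Slc7a5*, *Slc7a6*, *Slc7a7*, *Slc7a8* and *Slc7a11* summed to 58.5 beside a heavy chain level of 80.7 in WT+AKI, a ratio of 0.725, and to 180.5 beside 92.5 in TG+AKI, a ratio of 1.95. With the principal transcript of each gene as its length, an alternative chosen after the data were seen, the last ratios were 0.469 and 1.26. The ratio was 4.24-fold higher in TG+AKI for *Slc3a1* and 2.69-fold higher for *Slc3a2*, and neither the gene lengths of the heavy chains nor the library scaling enters these changes. The values are transcripts, and the amount of assembled transporter was not measured.

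**Figure D2:**
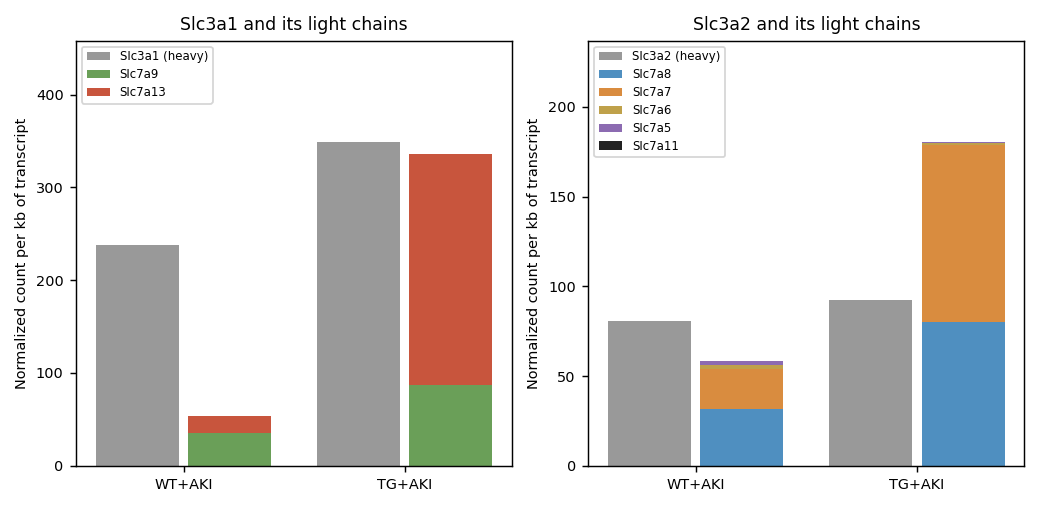
Normalized count per kilobase of transcript for each heavy chain (grey) beside its stacked light chains in WT+AKI and TG+AKI, 1 library per group, for Slc3a1 (left) and Slc3a2 (right). The light chain stacks grow from 54.1 to 337 and from 58.5 to 180.5, with heavy chains at 238 and 349 and at 80.7 and 92.5.

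The SLC6 carriers of the brush border went apart although their genes are neighbours. *Slc6a19* encodes the main sodium-dependent carrier of neutral amino acids, which is mutated in Hartnup disorder, and *Slc6a18* encodes a related carrier of glycine and other neutral amino acids. The genes lie in a row on the same strand of chromosome 13 (GRCm38, the assembly of mm10), *Slc6a18* at 73661750 to 73678023 and *Slc6a19* at 73679745 to 73700780, 1.72 kb apart. *Slc6a19* was at 116 (4938 reads) and 521 (17239 reads), a ratio of 4.47 [4.33 to 4.61]. *Slc6a18* was at 1257 (53300 reads) and 777 (25738 reads), a ratio of 0.618 [0.609 to 0.627], which did not reach 2-fold. The ratio of *Slc6a19* to *Slc6a18* reads changed 7.23-fold between the libraries (95% interval 6.98 to 7.49), again whatever the scaling. In WT+AKI *Slc6a18* had the highest level per kilobase of all 45 transporters, at 303, and *Slc6a19* the 12th highest, at 29.6. In TG+AKI they were at 187 and 132, in place 3 and place 4 behind *Slc3a1* and *Slc7a13*. *Slc6a18* has transcripts of very different length, and with its principal transcript it came first in both libraries.

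In the kidney both carriers need a partner protein, collectrin (*Cltrn*), to reach the membrane. *Cltrn* was at 545 and 1718, a ratio of 3.15 [3.11 to 3.20]. Collectrin transcripts were higher, as were those of *Slc6a19*. The proline carriers outside the naming rule were at 68.4 and 262 for *Slc6a20b*, a ratio of 3.83 on 2900 and 8683 reads, and at 16.9 and 31.7 for *Slc6a20a*, a ratio of 1.87 [1.70 to 2.06]. They share 6.44% and 10.3% of their 100-base words with each other, so that some of their reads may be exchanged. Part of the exon sequence of *Slc6a20b* (21.1%) overlaps *Sacm1l*, and part of that of *Slc6a20a* (13.8%) overlaps *Gm17120*, each on the opposite strand.

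The other SLC6 amino acid carriers differed less. *Slc6a15*, a carrier of branched-chain amino acids and proline, was at 19.0 and 27.8. The glycine transporter *Slc6a9* was at 30.0 and 24.4, a ratio of 0.815 [0.745 to 0.891], and 30.4% of its exon sequence overlaps *Ccdc24* on the opposite strand. *Slc6a17*, known from synaptic vesicles, was at 15.9 and 17.0, a ratio of 1.06 with an interval that includes 1 [0.950 to 1.19]. *Slc6a14* was under the filter in both libraries.

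Among SLC1 genes, which encode carriers of acidic amino acids and small neutral amino acids, none of 5 reached 2-fold. *Slc1a1*, the brush border carrier of glutamate and aspartate, was at 192 (8148 reads) and 309.7 (10257 reads), a ratio of 1.61 [1.57 to 1.66]. Its exons overlap *4430402I18Rik* on the opposite strand over 32.0% of their length. The neutral amino acid exchangers *Slc1a4* and *Slc1a5* were at 27.4 and 17.5 and at 45.3 and 30.6, ratios of 0.636 [0.575 to 0.704] and 0.674 [0.624 to 0.728]. *Slc1a2* and *Slc1a3*, best known as glutamate carriers of astrocytes, were at 5.47 and 7.28 and at 1.01 and 1.66. Ratios were thus above 1 for *Slc1a1*, *Slc1a2* (1.33 [1.11 to 1.60]) and *Slc1a3* (1.64 [1.08 to 2.50]), and below 1 for *Slc1a4* and *Slc1a5*.

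Cationic amino acid carriers that work without a heavy chain were of low abundance. *Slc7a1*, the general arginine and lysine carrier of most cells, was at 21.3 (903 reads) and 8.91 (295 reads), 2.39-fold lower in TG+AKI [ratio 0.418, 0.365 to 0.478]. *Slc7a2*, a related carrier, was at 8.70 and 15.7, a ratio of 1.80 [1.57 to 2.06]. *Slc7a4* was at 2.78 and 3.11 with an interval that includes 1 [0.850 to 1.47]. *Slc7a3* stayed under the filter. So did *Slc7a15*, which was not counted among the light chains above, whether or not it takes a heavy chain. The 3 transporters under the filter lay between 0.118 and 0.519 in the WT+AKI library and between 0.181 and 0.513 in the other, on 5 to 22 reads each, and no difference was detectable for them at this depth.

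The SLC38 family is best known for uptake of glutamine and other neutral amino acids with sodium. Of its 9 members, 3 were lower in TG+AKI and none was higher, beside 10.5% and 7.02% of all genes compared. *Slc38a3*, the basolateral glutamine carrier that feeds ammonia formation in the proximal tubule, was at 209 (8873 reads) and 91.3 (3022 reads), 2.29-fold lower [ratio 0.436, 0.418 to 0.454]. *Slc38a2*, a carrier that many cells induce when amino acids are short, was at 131 (5573 reads) and 62.7 (2077 reads), 2.10-fold lower [ratio 0.477, 0.453 to 0.502]. *Slc38a1* was at 7.19 (305 reads) and 3.53 (117 reads), 2.04-fold lower [ratio 0.491, 0.393 to 0.610]. *Slc38a1* and *Slc38a2* are neighbours on chromosome 15, 44.0 kb apart. *Slc38a1* passed the limit narrowly, with a log2 difference of -1.01, and did not pass it with a pseudocount of 1 or DESeq2 size factors. With a pseudocount of 10, *Slc38a1* (-0.35) and *Slc38a2* (-0.96) fell short of it and *Slc38a3* (-1.11) did not. On the other side of the limit, *Slc38a4*, expressed mainly in liver, had a log2 difference of 0.95 at 2.31 and 4.56.

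The other SLC38 members, among them carriers of the lysosome, did not reach 2-fold. *Slc38a9*, an arginine sensor of the mTORC1 pathway at the lysosome, was at 21.3 and 22.3, a ratio of 1.05 [0.948 to 1.15]. *Slc38a7*, the lysosomal glutamine exporter, was at 18.7 and 25.7, and *Slc38a10* at 119 and 147. *Slc38a6* was at 31.7 and 24.2, with 21.3% of its transcript words shared with other annotated genes. *Slc38a11* was at 1.08 and 1.96, a ratio of 1.81 on 46 and 65 reads. The directions of *Slc38a9*, *Slc6a17* and *Slc7a4* turned with equal library totals, as did that of *Slc3a2*, and those of *Slc38a9* and *Slc6a17* also with a median ratio of 1.

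In the SLC43 family of facilitators, none of 3 reached 2-fold. *Slc43a2*, a basolateral exit route for branched-chain and aromatic amino acids in the proximal tubule, was at 187 and 274, a ratio of 1.47 [1.43 to 1.51]. *Slc43a3*, which carries nucleobases, was at 88.5 and 48.5, a ratio of 0.548 [0.517 to 0.581]. *Slc43a1*, a carrier of branched-chain amino acids, was at 2.85 and 1.66. With equal library totals both *Slc43a3* (log2 difference -1.14) and *Slc43a1* (-1.01) passed the limit as lower, and with a median ratio of 1 *Slc43a3* did (-1.01). Of the proton-coupled carriers, *Slc36a1* of lysosomes and plasma membranes was at 65.9 (2794 reads) and 137 (4547 reads), a ratio of 2.08 [1.99 to 2.18] that fell short of the limit with equal totals or a median ratio of 1. *Slc36a4* was at 16.2 and 13.1.

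The osmolyte and transmitter carriers of the SLC6 family form a group of 5, of which 1 was higher, against 7.02% of all genes compared. The higher gene, *Slc6a12*, passed the filter through TG+AKI alone and so had to differ. *Slc6a12*, the betaine carrier that medullary cells induce in hypertonic surroundings, was at 0.708 (30 reads) and 4.56 (151 reads), a ratio of 6.44 [4.33 to 9.88], with a log2 difference of 2.53 that was 1.70 with a pseudocount of 1 and 0.44 with 10. Its neighbour *Slc6a13* on chromosome 6, 4.85 kb away, encodes a basolateral carrier of GABA and related compounds and was at 96.2 and 118, a ratio of 1.22 [1.17 to 1.28]. The taurine carrier *Slc6a6* was at 417 and 644, a ratio of 1.54 [1.51 to 1.57], and the creatine carrier *Slc6a8* at 184 and 225, a ratio of 1.23 [1.19 to 1.26]. The serotonin transporter *Slc6a4* was at 5.17 and 7.31.

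**Figure D3:**
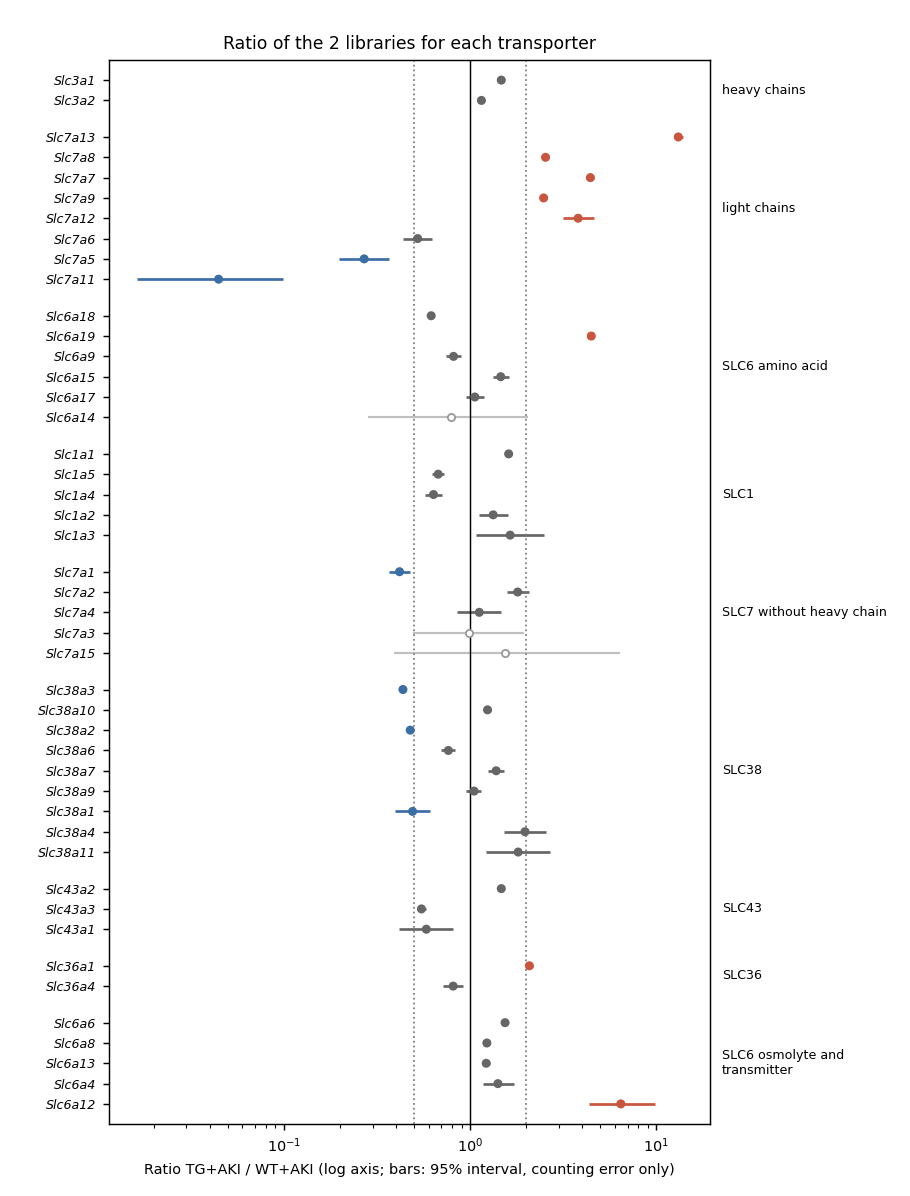
Ratio of TG+AKI to WT+AKI (log axis) for each of the 45 transporters with its 95% counting interval, 1 library per group; red, higher by 2-fold or more; blue, lower by 2-fold or more; open symbols, under the filter; dotted lines, 2-fold. The 8 light chains hold 5 of the 8 higher transporters, and the 9 SLC38 genes hold 3 of the 6 lower ones. In the whole table, 7.02% of the genes compared were higher and 10.5% lower.

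By place in the tubule, transporters of proximal brush border and basolateral membranes did not all lie on the same side. *Slc7a13*, *Slc6a19*, *Slc7a7*, *Slc7a8* and *Slc7a9* were at least 2-fold higher, *Slc1a1*, *Slc3a1* and *Slc43a2* had ratios between 1.47 and 1.61, *Slc6a18* had a ratio of 0.618, and *Slc38a3* was 2.29-fold lower. The sum over the 45 transporters was 4427 and 5945, 0.487% and 0.540% of all values. *Slc7a13* moved from place 17 to place 2 in the order of levels per kilobase and *Slc7a7* from place 16 to place 6, whereas *Slc38a3* moved from place 5 to place 15. Places that lie close together should not be read as an order, since they rest on annotated lengths.

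The other carriers and enzymes that handle amino acids and peptides at these membranes were read in the same way. Over all genes compared, 7.02% were higher and 10.5% lower. Of 16 further carriers and partner proteins, 13 were listed and 11 compared, with 3 higher, *Slc6a20b*, *Cltrn* and *Slc16a10*, and 1 lower. *Slc16a10*, the basolateral carrier of aromatic amino acids, was at 31.9 and 89.2, a ratio of 2.80 [2.62 to 2.99], and was named after its value was seen. *Slc15a3*, a peptide carrier of lysosomes in immune cells, was at 6.37 and 1.42. Of 8 brush border peptidases, 4 were higher and none was lower, with a median log2 difference of 0.92. *Mep1b* was at 52.7 and 146, *Ggt1*, which splits glutathione at the brush border, at 362 and 980.2, and *Dpep1* at 72.7 and 194. These are the 3 with the largest difference.

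The lower transporters were set beside 2 lists of genes for general cell supply and cystine use. Over all genes compared, 10.5% were lower and 7.02% higher. Of 17 genes of the ATF4 amino acid response, 16 were compared, of which 5 were lower and 1 was higher, with a median log2 difference of -0.92. *Atf4* itself was at 110.5 and 80.4, a ratio of 0.728 [0.694 to 0.763]. The lower genes were *Ddit4* (63.2 and 20.7), *Cebpb* (22.8 and 8.79), *Chac1* (2.24 and 0.846), *Aldh18a1* (5.02 and 2.33) and *Psat1* (96.9 and 46.7). Of these, *Chac1* passed the filter through WT+AKI alone and so had to differ. *Shmt2*, a mitochondrial enzyme of serine and glycine metabolism, was higher at 101 and 216. Of 10 genes of glutathione synthesis and the NRF2 response, 6 were lower and none was higher, with a median of -1.07. *Srxn1* was at 409 and 77.5, *Hmox1* at 169.7 and 43.3, and *Txnrd1* at 552 and 177. *Gclc*, the catalytic subunit that makes the glutathione precursor from cysteine, was at 752 and 285. *Gclm* and *Gss*, also of glutathione synthesis, were at 244 and 215 and at 213 and 263, and neither reached 2-fold. *Gclc*, *Gclm*, *Gss*, *Atf4*, *Shmt2*, *Aldh18a1* and *Psat1* were named after their values were seen. Among 11 genes of amino acid sensing by mTORC1, none differed 2-fold, and the median was 0.21.

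**Figure D4:**
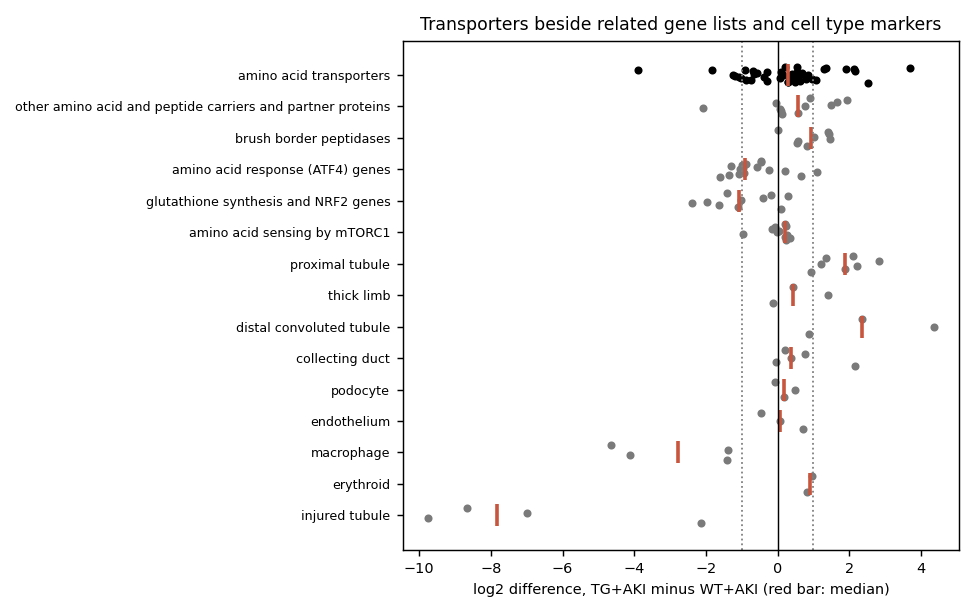
The log2 difference (TG+AKI minus WT+AKI) of each compared gene, 1 point per gene, with the median of each list in red and 2-fold as dotted lines. The amino acid transporters spread to both sides around a median of 0.30, whereas the proximal tubule markers lie to the right (median 1.87) and the injured tubule markers far to the left (median -7.83).

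**Figure D5:**
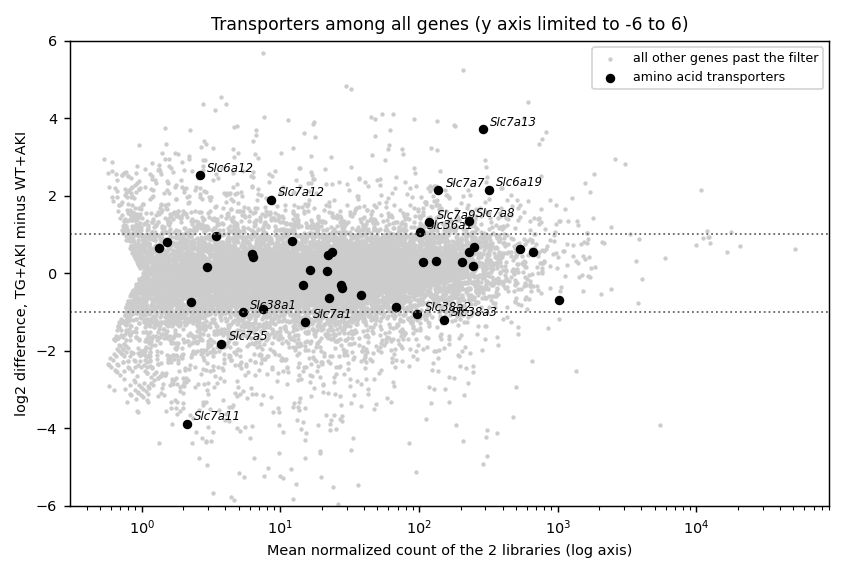
The log2 difference (TG+AKI minus WT+AKI) against the mean normalized count of both libraries (log axis) for the genes past the filter (grey) and the 42 amino acid transporters compared (black), with 2-fold as dotted lines, the y axis limited to 6 log2 units on either side of 0 and the 14 changed transporters named. Slc7a13 stands at 3.71 and Slc7a11 at -3.89, and most transporters lie between the dotted lines.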

How the data were processed

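RNA from left kidneys was sequenced after TruSeq Stranded mRNA library preparation. Per the labels, the submitters' processing notes name STAR 2.7.3a, HTSeq, Cufflinks 2.2.1, DESeq2, edgeR, FastQC and mm10, and the strand setting of the counting is not given in the sources used here. The authors deposited 1 table with a normalized count per gene and library (unit: signal), whose scale equals that of TMM factors recomputed here from the reads. Every value is a whole multiple of what 1 read is worth, to within 0.001 reads, so reads were recovered. The filter of 1 corresponds to 42.4 reads for WT+AKI and 33.1 for TG+AKI.

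With 1 library per group no test was run. Log2 differences used a pseudocount of 0.1, and a difference of at least 2-fold counted as changed. Intervals (95%) were computed with scipy 1.17.1 from the recovered reads. Python 3.11.15, numpy 2.4.6, pandas 2.3.3, matplotlib 3.10.9, R 4.3.3, edgeR 4.0.16 and DESeq2 1.42.0 were used, the last pair for alternative scale factors only. The calculation was tested on simulated data. Lengths, positions and overlaps came from GENCODE M21 and promoters from RefSeq, both on GRCm38.p6.

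The transporters and all other lists were chosen with earlier results of these data known. Every transporter past the filter is given with both values, and changed transporters, heavy and light chains and brush border carriers also with reads and interval. Of other lists, counts and up to 3 genes of largest difference are given, with partner proteins of the transporters. Genes named after their values were seen are marked as such where they appear. Alternatives were other pseudocounts, scalings and filters, the addition of *Slc6a20a* and *Slc6a20b*, an interval that excludes 1, and another transcript length. Of 61 transporter symbols looked up by role, 16 were not among the genes listed and were not analysed here. Every gene listed had at least 1 read in each library, so a transporter without reads in either library would not appear. A gene of the list of further carriers and partner proteins is counted but not reported here by name.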

Additional observations from a re-analysis of the deposited data

How the results depend on the processing

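With 1 library per group no replicate could be left out, so the spread between animals is unknown, and counting error is the only error given. With a pseudocount of 10 the transporters counted as changed were 5 higher and 1 lower and the median log2 difference was 0.17, and over all genes the counts were 372 higher and 408 lower in place of 1053 and 1578. By construction this setting shrinks the differences of low genes, and *Slc36a1*, *Slc38a1*, *Slc38a2*, *Slc6a12*, *Slc7a1*, *Slc7a5*, *Slc7a11* and *Slc7a12* were no longer past the limit. With equal library totals the median was 0.03 (687 genes higher and 2346 lower in all), and with a median ratio of 1 it was 0.16 (841 higher and 1932 lower in all). A filter of 10 left 3 of 30 transporters lower, because fewer genes are compared, and 625 genes higher and 784 lower of 10294. The ratio of light chains to *Slc3a2* was 0.469 in WT+AKI and 1.26 in TG+AKI with the principal transcript length, chosen after the data were seen. None of the 14 changed transporters changed sign under the 6 alternatives of pseudocount and scaling, and 4 of the 42 compared did, *Slc3a2* (-0.08), *Slc7a4* (-0.11), *Slc6a17* (-0.18 and -0.05) and *Slc38a9* (-0.21 and -0.08). No paired analysis was possible because each group held 1 library. The 3 transporters under the filter rest on too few reads to show a difference.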
